A study of Mus musculus with 8 samples.

Results

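This section describes 10 genes grouped as IL-10 and TGF-beta/activin signals, in phagocytes sorted from mouse glioma. They are Il10 and its receptor gene Il10ra, the IL-1 receptor antagonist gene Il1rn, and the TGF-beta ligand genes Tgfb1, Tgfb2 and Tgfb3. The others are the receptor genes Tgfbr1 and Tgfbr2, the activin subunit gene Inhba, and Tgfbi. The 10 genes were taken from the count tables by symbol, with no threshold on their values. All 10 were among the 50763 genes listed, and all 10 passed the filter on low counts that left 16608 genes to be tested. The cells were live, CD45.2-positive and mCherry-positive. They were sorted from dissociated brains 23 days after intracranial implantation of GL261, a mouse glioma cell line carrying mCherry and EGFP. A CD45.2-positive cell that also carries mCherry is taken to be a leukocyte that has taken up tumour material. Hosts were C57BL/6 wild-type mice (WT) or B cell-deficient muMT mice, treated either with control IgG (isotype) or with anti-CTLA-4, which blocks a receptor that restrains T cells. All hosts carried the tumour. There were 8 libraries, 2 for each combination of host and antibody. Mouse ages, antibody doses and whether replicate libraries are separate or pooled mice are not given in the sources used here. The p-values therefore rest on a spread between libraries that may be technical.

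IL-10 is a cytokine that restrains macrophage activation. It binds a receptor made of the chains encoded by Il10ra and Il10rb, and the kinases JAK1 and TYK2 then activate STAT3. The IL-1 receptor antagonist occupies the IL-1 receptor without signalling. TGF-beta is secreted in a latent form and must be released before it binds the receptor chain TGFBR2, which recruits TGFBR1 and leads to phosphorylation of SMAD2 and SMAD3. Activin A, a dimer of the product of Inhba, uses the same SMADs through other receptors, and in the brain TGF-beta is known to maintain the resting state of microglia.

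Reads in genes ran from 24784639 to 31289104 per library. Levels are given in CPM, counts scaled to library size after TMM normalization, as mean ± SD of 2 libraries. The summed level of 12 phagocyte markers lay between 11240 and 15540 CPM per library, against 42.3 to 63.2 CPM for 14 T and NK cell genes, 137 to 159 CPM for 12 neutrophil genes and 5.96 to 12.9 CPM for 10 B cell genes. Jchain, a gene of antibody-secreting cells, had 0 reads in the muMT isotype group and 2 in muMT anti-CTLA-4, against 82 in the WT isotype group and 135 in WT anti-CTLA-4. Some uniquely mapped reads overlapped no annotated exon on the counted strand, and these can lie inside introns. Their share was 18.6% to 20.8% in the muMT libraries and 28.4% to 33.3% in the WT libraries. Their part in the results below was not tested. Because these are bulk samples, fewer cells of a type and less RNA per cell cannot be told apart. GL261 is a mouse line, so any RNA of tumour cells would be counted in the same genes. Its part in the results was not tested.

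With anti-CTLA-4, Inhba and Il1rn rose in both hosts and Tgfb3, Tgfbr1 and Tgfbr2 fell in both. Il10 and Tgfb1 moved in opposite directions: Il10 rose in WT and fell in muMT, Tgfb1 fell in WT and rose in muMT. In WT, 7 of the 10 genes were called (edgeR quasi-likelihood test, Benjamini-Hochberg adjusted p under 0.05 over all tested genes), 3 higher and 4 lower, where 30.5% of all tested genes were called, 14.7% higher and 15.9% lower. In muMT, 9 of 10 were called, 4 higher and 5 lower, against 42.5% of all tested genes, 22.1% higher and 20.4% lower. The difference between the effects in WT and muMT was called for 7 of 10, 4 higher in WT and 3 lower, against 37.3% of all tested genes, 17.5% higher and 19.8% lower. Of all tested genes, 9.83% were called in both hosts with the same sign and 7.88% with opposite signs, and these held 5 and 2 of the 10 genes. The median log2 fold change of the 10 genes was 0.07 in WT and -0.26 in muMT, beside -0.01 and 0.00 over all tested genes.

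**Figure D1:**
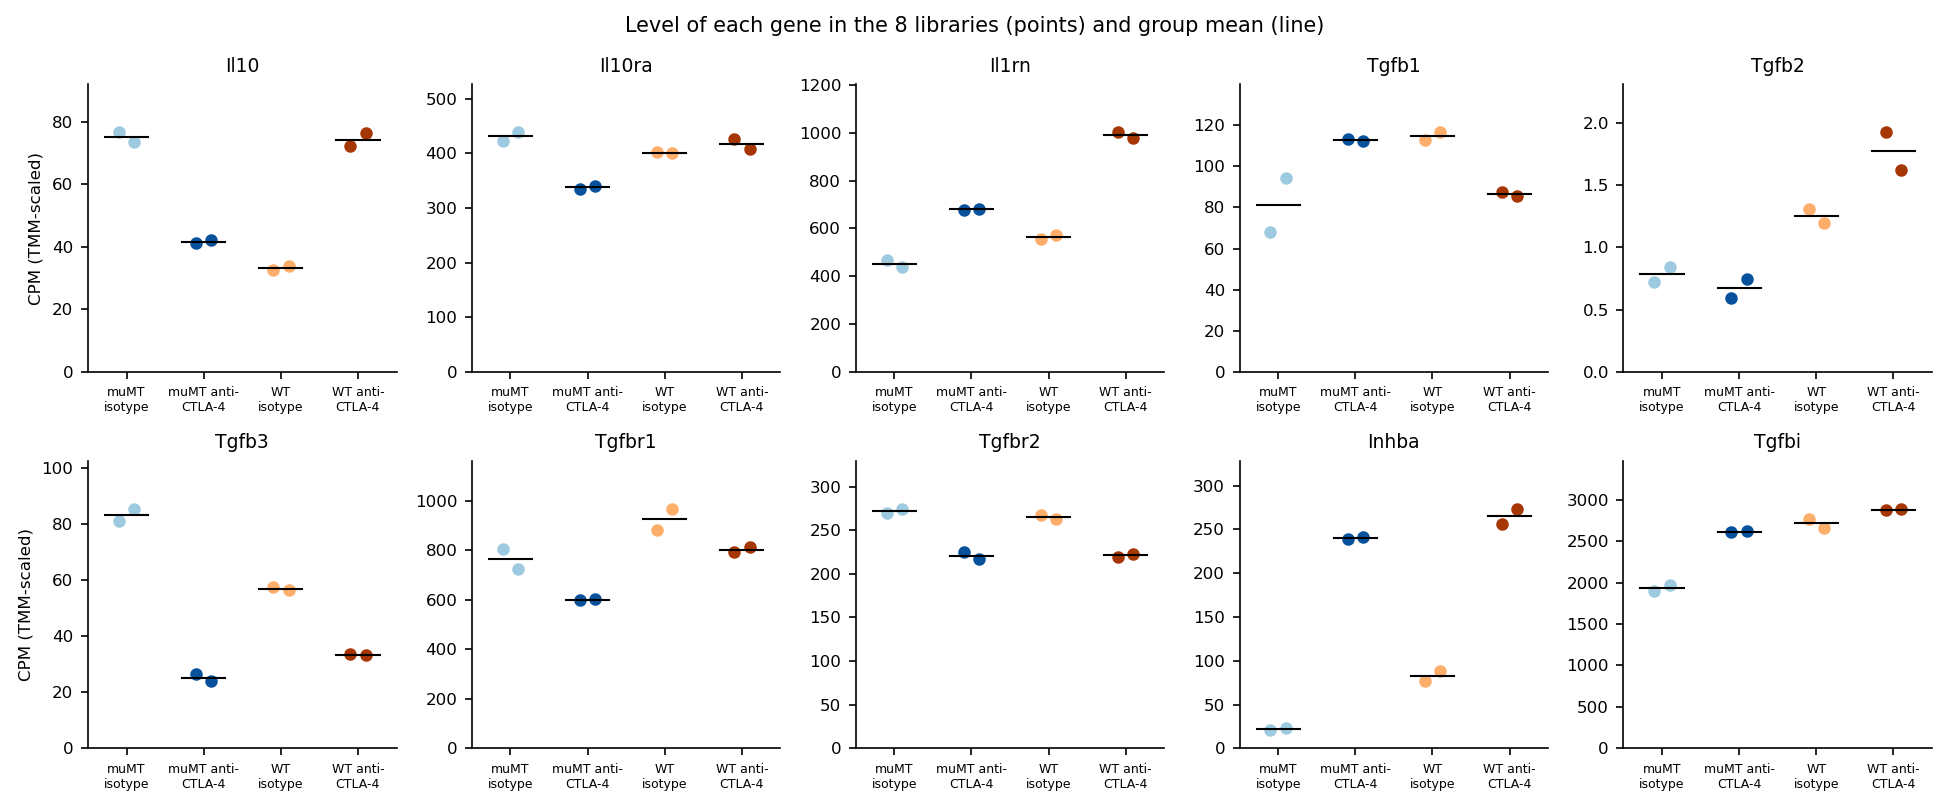
Level of each of the 10 genes in CPM (TMM-scaled, linear axes from 0) in every library; points are libraries and lines are group means of 2. Il10 is high in muMT isotype and WT anti-CTLA-4, near 75 CPM, and low in the other groups, while Inhba is lowest in muMT isotype, near 22 CPM.

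Il10 stood at 76.7 and 73.7 CPM in the muMT isotype libraries and 41.2 and 42.1 CPM under anti-CTLA-4 in the same host. In WT it stood at 32.6 and 33.8 CPM under isotype, and at 72.3 and 76.5 CPM under anti-CTLA-4. The high and low levels were swapped between the hosts, and only the libraries of muMT isotype and WT anti-CTLA-4 overlapped. Il10 rose 2.24-fold with anti-CTLA-4 in WT (log2 1.16 ± 0.06 SE, adjusted p = 1.15e-15) and fell by 0.85 ± 0.06 on the log2 scale in muMT (adjusted p = 6.94e-13). The difference of these effects was 2.02 ± 0.09 (log2, adjusted p = 1.05e-17). Under isotype Il10 was lower in WT than in muMT (log2 -1.18 ± 0.06, adjusted p = 1.43e-15), and under anti-CTLA-4 it was higher (0.84 ± 0.06, adjusted p = 6.15e-13). Lymphocytes can also make IL-10. The summed level of the 14 T and NK cell genes was 57.4 to 63.2 CPM in muMT isotype, 42.3 to 46.6 CPM in muMT anti-CTLA-4, 46.7 to 47.5 CPM in the WT isotype group and 46.9 to 49.2 CPM in WT anti-CTLA-4. Of the 13 tested, 4 rose and 1 fell in WT, and 0 rose and 4 fell in muMT. The shares over all tested genes were 14.7% higher and 15.9% lower in WT, and 22.1% higher and 20.4% lower in muMT. The list medians were 0.24 in WT, -0.22 in muMT and 0.91 for the difference (log2). In WT the sum held opposite moves: mean Klrb1c went from 9.91 to 2.93 CPM with anti-CTLA-4, and Cd3g from 2.43 to 4.57 CPM. None of the 14 was at 0 reads in any group. Their part in the Il10 result was not tested.

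Il10ra, which encodes the ligand-binding receptor chain, varied less. It stood at 424 and 439 CPM in the muMT isotype group and 336 and 340.3 CPM in muMT anti-CTLA-4. The WT isotype libraries held 403 and 399.9 CPM and the WT anti-CTLA-4 libraries 427 and 408 CPM. The muMT anti-CTLA-4 libraries were below all others. Il10ra fell by 0.35 ± 0.04 on the log2 scale in muMT (adjusted p = 7.85e-08) and was at 0.06 ± 0.04 in WT (95% interval -0.03 to 0.14, adjusted p = 0.36). The effects differed by 0.41 ± 0.06 (adjusted p = 3.25e-06). Il10ra was higher in WT than in muMT under anti-CTLA-4 (log2 0.30 ± 0.04, adjusted p = 5.61e-07) and was not called under isotype (-0.10 ± 0.04, adjusted p = 0.0587), although it was called there in unstranded counts (adjusted p = 0.00819), by DESeq2 (0.0498) and without muMT isotype replicate 1 (0.016).

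Of 12 further genes of IL-10 receptor signalling, all tested, 2 rose and 2 fell in WT, and 3 rose and 6 fell in muMT, with list medians of 0.03 and -0.07 on the log2 scale. Calls over all tested genes were 30.5% in WT and 42.5% in muMT. Socs3, a feedback inhibitor induced by STAT3, stood at 621 ± 34.9 CPM in the WT isotype group and 707 ± 9.26 CPM in WT anti-CTLA-4 (log2 0.19 ± 0.04, adjusted p = 0.00103). In muMT it fell by 0.22 (log2), from 677 ± 10 CPM to 582 ± 6.37 CPM, so it moved in the same directions as Il10, and its effects differed by 0.41 ± 0.06 (adjusted p = 3.25e-06). Ddit4, an inhibitor of mTORC1, fell in both hosts, by 1.26 in WT and by 0.69 in muMT on the log2 scale. Etv3, a transcriptional repressor, rose in both (0.31 and 0.28), and Il4ra, the IL-4 receptor chain, fell by 0.34 in WT. In muMT, Tyk2 (0.38) and Nfil3 (0.24) rose.

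Il1rn rose in both hosts. Its libraries stood at 467 and 438 CPM in muMT isotype, 679 and 682 CPM in muMT anti-CTLA-4, 554 and 572 CPM in the WT isotype group and 1002 and 977 CPM in WT anti-CTLA-4. The 4 groups did not overlap. Il1rn rose 1.76-fold in WT (log2 0.81 ± 0.04, adjusted p = 8.25e-16) and by less in muMT (log2 0.59 ± 0.04, adjusted p = 1.62e-12), and the effect was larger in WT by 0.23 ± 0.06 (adjusted p = 0.00357). It was higher in WT than in muMT under isotype (0.32 ± 0.04, adjusted p = 5.96e-07) and under anti-CTLA-4 (0.54 ± 0.04, adjusted p = 4.27e-12).

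The genes of the agonists that the antagonist opposes rose in WT and were not called in muMT. Il1b rose by 0.34 ± 0.04 in WT (adjusted p = 2.9e-08) and was at 0.04 ± 0.04 in muMT (adjusted p = 0.429). Il1a rose in WT, from 680 ± 19.4 CPM to 1341 ± 4.27 CPM (log2 0.98 ± 0.05, adjusted p = 9.65e-17), and in muMT was at 917 ± 82.3 CPM under isotype and 916 ± 2.7 CPM under anti-CTLA-4. Per read of Il1b, there were 0.137 and 0.137 reads of Il1rn in the muMT isotype libraries and 0.200 and 0.200 in muMT anti-CTLA-4. In WT this ratio was 0.151 and 0.152 under isotype and 0.214 and 0.205 under anti-CTLA-4. All 4 anti-CTLA-4 libraries therefore had more Il1rn reads per Il1b read than the 4 isotype libraries. Il1r2, the decoy receptor for IL-1, fell in both hosts, by 0.56 in WT (adjusted p = 7.52e-11) and by 0.51 in muMT (adjusted p = 2.72e-10). Irak3, an inhibitory kinase of the pathway, rose by 1.13 ± 0.09 in WT (adjusted p = 6.97e-12), from 13.8 ± 0.698 CPM to 30.3 ± 1.12 CPM. Casp1, which cleaves pro-IL-1beta, rose in both (0.77 and 0.45). Il18bp, which neutralises IL-18, rose in WT (0.47) and fell by 0.44 in muMT, and its effects differed between the hosts by 0.91 ± 0.06 (adjusted p = 1.70e-12). Neutrophils also express IL-1 system genes: of 12 neutrophil genes, 10 were tested, of which 0 rose and 6 fell in WT, and 2 rose and 3 fell in muMT. Their summed level was 149 to 152 CPM in WT isotype, 141 CPM in WT anti-CTLA-4, 151 to 159 CPM in the muMT isotype group and 137 to 139 CPM in muMT anti-CTLA-4. Csf3r made up most of the WT sums, with means of 108 CPM under isotype and 117 CPM under anti-CTLA-4. The list medians were -1.80 in WT and -0.24 in muMT (log2), and S100a9 went from 8.38 to 1.44 CPM in WT. Ly6g had 0 reads in WT anti-CTLA-4. The part of neutrophils in these results was not tested. Of the 11 IL-1 system genes, all tested, 6 rose and 2 fell in WT, and 3 rose and 3 fell in muMT. Over all tested genes, 14.7% rose and 15.9% fell in WT, and 22.1% rose and 20.4% fell in muMT.

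Tgfb1, the main TGF-beta ligand of leukocytes, stood at 67.9 and 94.5 CPM in muMT isotype, the pair of replicates furthest apart, relative to their mean, among the 10 genes. The muMT anti-CTLA-4 libraries held 113 and 112 CPM, WT isotype 113 and 117 CPM, and WT anti-CTLA-4 87.5 and 85.8 CPM. Both WT anti-CTLA-4 libraries lay within the range of muMT isotype. Tgfb1 rose in muMT (log2 0.47 ± 0.12, adjusted p = 0.0147) and fell by 0.40 ± 0.12 in WT (adjusted p = 0.0399), a difference of -0.88 ± 0.18 (adjusted p = 0.00447). The size of the muMT effect rests on the isotype libraries: it was 0.26 without muMT isotype replicate 1 and 0.74 without muMT isotype replicate 2. The WT call was lost with DESeq2 (adjusted p = 0.069) and without WT isotype replicate 1 (0.177) or 2 (0.208) or WT anti-CTLA-4 replicate 1 (0.0911) or 2 (0.116), and the muMT call without WT isotype replicate 1 (0.051). The difference of the effects stayed called under all 15 alternatives run, with values from -1.14 to -0.66. Tgfb1 was higher in WT than in muMT under isotype (0.50 ± 0.12, adjusted p = 0.0128) and lower under anti-CTLA-4 (-0.38 ± 0.12, adjusted p = 0.0302). The isotype value was 0.28 without muMT isotype replicate 1 and 0.75 without replicate 2, and its call was lost without either WT isotype library (0.0824 and 0.112). The call under anti-CTLA-4 was lost under 7 of 16 alternatives (0.0625 to 0.081).

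Tgfb3 fell in both hosts. Its libraries held 81.2 and 85.5 CPM in muMT isotype, 26.5 and 23.9 CPM in muMT anti-CTLA-4, 57.6 and 56.5 CPM in the WT isotype group and 33.8 and 33.2 CPM in WT anti-CTLA-4. The 4 groups did not overlap. The fall was 1.73 ± 0.07 on the log2 scale in muMT (adjusted p = 2.38e-19) and 0.77 ± 0.07 in WT (adjusted p = 6.11e-11), and the effects differed by 0.96 ± 0.09 (adjusted p = 1.16e-09). Under isotype Tgfb3 was lower in WT than in muMT (-0.55 ± 0.06, adjusted p = 1.47e-08), and under anti-CTLA-4 it was higher (0.41 ± 0.07, adjusted p = 1.06e-05). Tgfb3 overlaps Ttll5 on the other strand in the GENCODE M21 annotation, and the strand-specific counts used here separate them. In unstranded counts the host difference under anti-CTLA-4 was 0.23.

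Connective tissue markers moved with Tgfb3. The summed level of 14 fibroblast and mural cell genes was 505 to 515 CPM in muMT isotype, 164 to 168 CPM in muMT anti-CTLA-4, 318 to 329 CPM in the WT isotype group and 217 to 225 CPM in WT anti-CTLA-4, the same order of groups as Tgfb3. Of these 14 genes, 13 fell and 0 rose in muMT, 9 fell and 1 rose in WT, and none was at 0 reads in any group. Over all tested genes, 20.4% fell and 22.1% rose in muMT, and 15.9% fell and 14.7% rose in WT. The genes whose levels were most like Tgfb3 over the 8 libraries, by Pearson correlation of log2 CPM among 9735 genes, were Icosl (0.99), Col6a2 (0.99) and Col5a1 (0.99), the last of them in the marker list. The order of groups was not particular to connective tissue markers, since the summed level of 11 microglia genes shared it. That level was 2469 to 2610 CPM in muMT isotype and 2316 CPM in WT isotype. It was 2037 to 2086 CPM in WT anti-CTLA-4 and 1684 to 1704 CPM in muMT anti-CTLA-4. The part of either marker list in the Tgfb3 result was not tested.

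**Figure D2:**
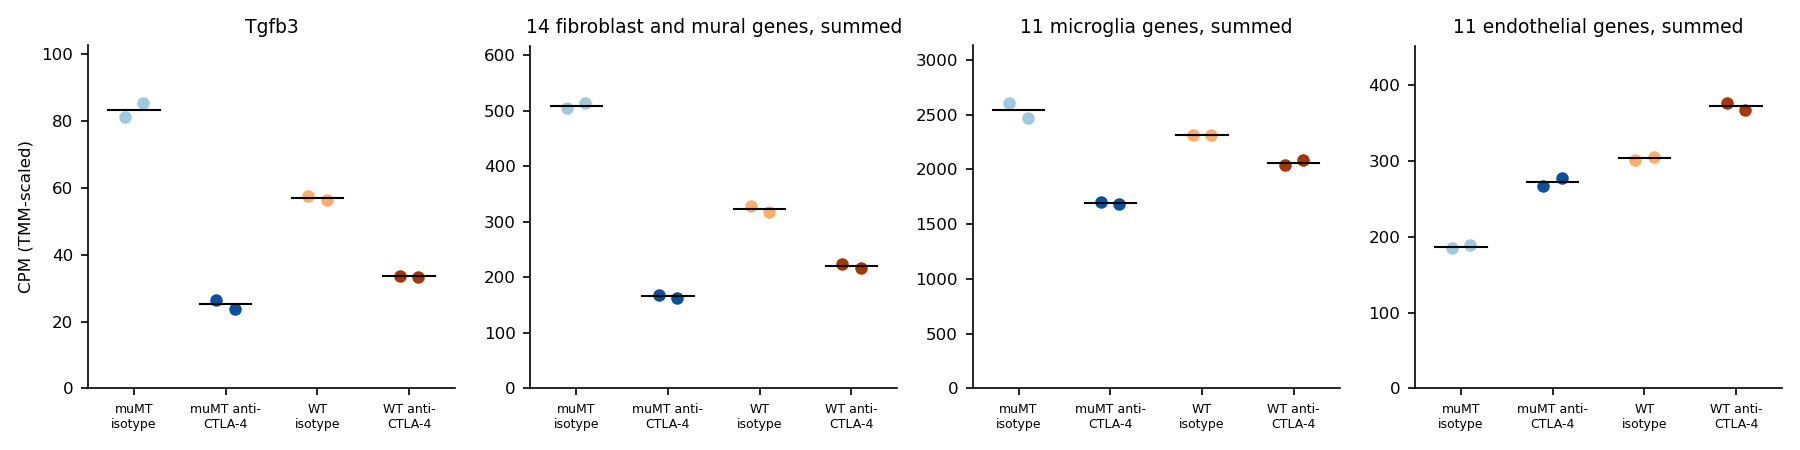
Tgfb3 and the summed levels of 3 marker lists in CPM (TMM-scaled, linear axes from 0) in each library; lines are group means of 2. Tgfb3, the 14 fibroblast and mural genes and the 11 microglia genes share the order muMT isotype, WT isotype, WT anti-CTLA-4, muMT anti-CTLA-4. The 11 endothelial genes do not.

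Tgfb2 was near the limit of detection, with 18 to 48 reads per library. Its levels were 0.718 and 0.845 CPM in muMT isotype, 0.594 and 0.749 CPM in muMT anti-CTLA-4, 1.31 and 1.19 CPM in the WT isotype group and 1.92 and 1.62 CPM in WT anti-CTLA-4. All WT libraries were above all muMT libraries. The anti-CTLA-4 effect was not called in WT (log2 0.50, 95% interval -0.11 to 1.10, adjusted p = 0.219) or in muMT (-0.22, -0.95 to 0.52, adjusted p = 0.663). Tgfb2 was higher in WT than in muMT under anti-CTLA-4 (1.39 ± 0.32, adjusted p = 0.000539) and was at 0.68 ± 0.33 under isotype (adjusted p = 0.104).

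Both TGF-beta receptor genes fell modestly in both hosts. Tgfbr1, the signalling type I receptor, stood at 805 and 724 CPM in muMT isotype, 598 and 601 CPM in muMT anti-CTLA-4, 882 and 967 CPM in the WT isotype group and 792 and 813 CPM in WT anti-CTLA-4. WT anti-CTLA-4 and muMT isotype overlapped and the other groups did not. Tgfbr1 fell by 0.35 ± 0.05 in muMT (adjusted p = 5.65e-07) and by 0.20 ± 0.05 in WT (adjusted p = 0.00127), but without WT isotype replicate 2 the WT value, -0.13, was not called (adjusted p = 0.051). The difference, 0.15 ± 0.07, was not called (95% interval 0.01 to 0.28, adjusted p = 0.0939), but was called without muMT isotype replicate 2 (0.22, adjusted p = 0.00173) or WT isotype replicate 2 (0.21, 0.013) and when libraries were scaled by total reads alone (0.18, 0.0382). Tgfbr1 was higher in WT than in muMT under isotype (0.27 ± 0.05, adjusted p = 2.91e-05) and under anti-CTLA-4 (0.42 ± 0.05, adjusted p = 1.12e-08).

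Tgfbr2, the ligand-binding type II receptor, was called for the antibody effect in both hosts and not for the host under either antibody. It stood at 270.2 and 274 CPM in the muMT isotype group and 267 and 263 CPM in WT isotype, against 225 and 216 CPM in muMT anti-CTLA-4 and 219.7 and 223 CPM in WT anti-CTLA-4. All isotype libraries were above all anti-CTLA-4 libraries. Tgfbr2 fell by 0.30 ± 0.04 in muMT (adjusted p = 1.52e-06) and by 0.26 ± 0.04 in WT (adjusted p = 2.42e-05). The difference of effects was 0.04 (95% interval -0.09 to 0.17, adjusted p = 0.633). WT and muMT differed by -0.04 under isotype (-0.13 to 0.05, adjusted p = 0.516) and by 0.00 under anti-CTLA-4 (-0.09 to 0.10, adjusted p = 0.951). Under isotype, however, both WT libraries lay below both muMT libraries. Over the alternatives run, that isotype value ranged from -0.11 to -0.02 and stayed uncalled.

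Inhba changed most of the 10 genes. Its libraries held 20.8 and 22.9 CPM in muMT isotype, 239 and 241 CPM in muMT anti-CTLA-4, 76.6 and 88.5 CPM in the WT isotype group and 257 and 274 CPM in WT anti-CTLA-4. The 4 groups did not overlap, and the highest mean was 12.1 times the lowest. Inhba rose 10.99-fold in muMT (log2 3.46 ± 0.07, adjusted p = 6.27e-27) and 3.21-fold in WT (1.68 ± 0.06, adjusted p = 2.34e-20), a difference of -1.78 ± 0.09 (adjusted p = 2.95e-16). In muMT, 25 of the 16608 tested genes had a log2 fold change at least as high, Inhba included, and in WT 151. Most of the difference lay in the isotype groups: Inhba was 3.78-fold higher in WT than in muMT under isotype (1.92 ± 0.07, adjusted p = 7.86e-20) and 1.10-fold higher under anti-CTLA-4 (0.14 ± 0.05, adjusted p = 0.0273). That last call was lost in unstranded counts (adjusted p = 0.453), by DESeq2 (0.0543), without muMT anti-CTLA-4 replicate 1 (0.165) or 2 (0.122) and without WT anti-CTLA-4 replicate 2 (0.329). The genes most like Inhba over the 8 libraries were Zcchc2, Cmtm3 and Myof, each with a Pearson correlation of 1.00 after rounding, though their log2 fold changes were smaller: 0.88, 0.37 and 0.64 in muMT.

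The other genes of the activin system were more often lower than higher in muMT, where 22.1% of all tested genes rose and 20.4% fell. In WT these shares were 14.7% and 15.9%. Of the 16 listed, 10 had enough reads to be tested, and of these 0 rose and 2 fell in WT, and 1 rose and 6 fell in muMT. Acvr1b, an activin type I receptor gene, was the one that rose (0.19 ± 0.07, adjusted p = 0.0343). Inhbb, the other common beta subunit, stood at 1.06 ± 0.0207 CPM in the muMT isotype group and 0.350 ± 0.158 CPM in muMT anti-CTLA-4 (log2 -1.59 ± 0.42, adjusted p = 0.00255) and at 0.880 ± 0.00481 and 0.883 ± 0.0538 CPM in the WT groups. Inha, whose product pairs with the beta subunits to form inhibin, had 1 to 6 reads per group, and Fst, which encodes the antagonist follistatin, 15 to 37. Fstl1, a follistatin-like secreted protein, fell by 1.40 ± 0.07 in muMT, from 48.7 ± 2.75 CPM to 18.4 ± 0.113 CPM (adjusted p = 5.05e-16), and was at -0.17 ± 0.07 in WT (adjusted p = 0.0821). The receptor gene Acvr2b fell in both hosts, by 0.61 in WT and by 0.66 in muMT, as did Gdf15, a stress-induced relative of TGF-beta, by 0.32 and 0.40.

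Tgfbi encodes an extracellular matrix protein named for its induction by TGF-beta. It was the most abundant of the 10 genes, with 1897 and 1973 CPM in muMT isotype, 2610 and 2618 CPM in muMT anti-CTLA-4, 2766 and 2664 CPM in the WT isotype group and 2870 and 2889 CPM in WT anti-CTLA-4. The muMT isotype libraries were below all others. Tgfbi rose by 0.43 ± 0.04 in muMT (adjusted p = 1.84e-10) and was at 0.08 ± 0.04 in WT (adjusted p = 0.102), a difference of -0.35 ± 0.06 (adjusted p = 7.76e-06). The WT value was called by DESeq2 (adjusted p = 0.0389), without muMT isotype replicate 1 (0.0155) or 2 (0.0153) and without WT isotype replicate 1 (0.0443). Tgfbi was higher in WT than in muMT under isotype (0.49 ± 0.04, adjusted p = 2.16e-11) and under anti-CTLA-4 (0.14 ± 0.04, adjusted p = 0.00314), the latter lost in unstranded counts (adjusted p = 0.252) and without muMT anti-CTLA-4 replicate 1 (0.0593) or 2 (0.0522) or WT anti-CTLA-4 replicate 2 (0.0568).

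**Figure D3:**
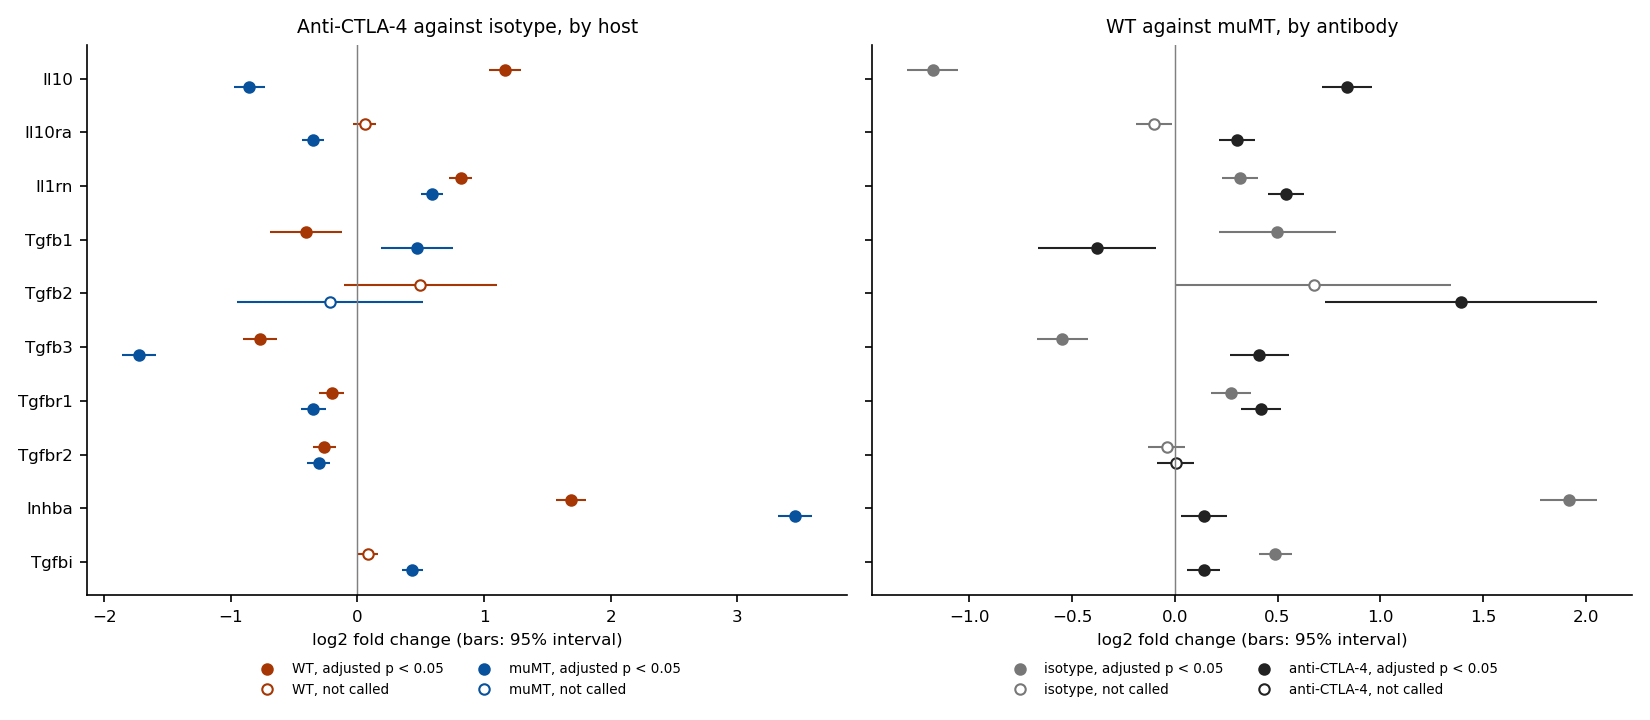
Log2 fold change of each of the 10 genes with its 95% interval, for the antibody effect in each host (left) and for the hosts under each antibody (right). Filled points had an adjusted p under 0.05; Il10 and Tgfb1 lie on opposite sides of 0 in WT and muMT, and Inhba reaches 3.46 in muMT.

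Across genes, levels can be set side by side only per length. In WT isotype, mean CPM per kilobase of exon was 720 for Tgfbi, 141 for Tgfbr1, 115 for Il10ra and 102 for Il1rn. It was 32.4 for Tgfbr2, 25.4 for Il10, 22.8 for Tgfb1, 16.9 for Tgfb3, 12.9 for Inhba and 0.216 for Tgfb2. On this scale Il10ra exceeded Il10, and both TGF-beta receptor genes exceeded the 3 TGF-beta ligand genes. In muMT anti-CTLA-4 the ligands stood at 37.6 for Inhba, 31.8 for Il10, 22.3 for Tgfb1, 7.44 for Tgfb3 and 0.116 for Tgfb2. Exon lengths were taken from GENCODE M21, an annotation of an older assembly than the counts, so these values are approximate.

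The hosts were also compared under each antibody. Under isotype, 7 of the 10 genes were called, 5 higher in WT and 2 lower, against 39.2% of all tested genes (19.9% higher and 19.2% lower). Il10 and Tgfb3 were the genes higher in muMT. Under anti-CTLA-4, 9 of 10 were called, 8 higher in WT and 1 lower, against 56.1% of all tested genes (27.4% higher and 28.7% lower), and Tgfb1 was the gene lower in WT. These comparisons share their libraries with those of the antibody effect and are not independent of them.

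The promoters of Inhba and Il1rn, which rose in both hosts, are shown with that of Tgfb1, which did not. RefSeq promoter sequences were found for 7 of the 10 genes (Il10, Il10ra and Tgfb3 had no match). The 250 bases before the annotated start are given 5′ to 3′ on the plus strand of GRCm38.p6, an older assembly than that of the counts, at chr13:16011601-16011850 for Inhba, chr2:24336610-24336859 for Il1rn (the first of 3 starts listed) and chr7:25686752-25687001 for Tgfb1. Capitals mark matches to the motifs searched on both strands.
Inhba: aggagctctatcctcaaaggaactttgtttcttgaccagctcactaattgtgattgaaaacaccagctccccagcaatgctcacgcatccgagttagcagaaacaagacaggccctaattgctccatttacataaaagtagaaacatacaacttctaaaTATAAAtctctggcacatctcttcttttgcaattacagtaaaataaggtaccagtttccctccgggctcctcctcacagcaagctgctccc
Il1rn: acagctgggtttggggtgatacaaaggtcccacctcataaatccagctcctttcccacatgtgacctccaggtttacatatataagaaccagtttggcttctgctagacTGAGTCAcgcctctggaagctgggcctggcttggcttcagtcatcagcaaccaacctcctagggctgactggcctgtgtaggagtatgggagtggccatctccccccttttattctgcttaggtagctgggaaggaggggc
Tgfb1: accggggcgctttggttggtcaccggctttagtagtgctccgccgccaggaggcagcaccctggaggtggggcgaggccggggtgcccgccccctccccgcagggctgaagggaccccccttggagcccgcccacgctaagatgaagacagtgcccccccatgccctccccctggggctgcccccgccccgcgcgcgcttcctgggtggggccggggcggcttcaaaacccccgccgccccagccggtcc
The capitals in Inhba are a TATA box motif (TATAAA), 91 to 86 bases before the start, which 12.4% of all 32851 promoter windows of this length hold. Those in Il1rn are an AP-1 motif (TGANTCA), 141 to 135 bases before the start, held by 6.75%. The windows of the other Il1rn starts held no match to any motif searched. Tgfb1 had no match and a GC content of 75.2%, against 43.2% for Inhba and 53.2% for Il1rn. None of the 3 windows held the STAT motif (TTCNNNGAA, 7.02% of windows), the cAMP response element (TGACGTCA, 1.55%), the SMAD motif (CAGACA, 17.1%) or the NF-kB motif (3.9%). Among the genes not shown, Tgfb2 and start 2 of Tgfbr1 held the SMAD motif. A match describes letters only. The counts do not tell which start was used.

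Genes of TGF-beta release, which acts upstream of the receptors, and the SMAD and TGF-beta-responsive genes downstream of them were lower with anti-CTLA-4 in muMT more often than they were higher. The shares over all tested genes were 20.4% lower and 22.1% higher in muMT, and 15.9% lower and 14.7% higher in WT. Of 17 genes of latent TGF-beta release, 16 were tested, of which 5 rose and 2 fell in WT, and 3 rose and 8 fell in muMT. Bgn (-1.81), Fbn1 (-1.32), Dcn (-0.87) and Itgb5 (-0.61) had the smallest p in muMT, and the first 3 encode matrix proteins that bind TGF-beta or its latent complexes. Itgb5, an integrin subunit, also fell in WT, by 0.34 (adjusted p = 1.98e-07). Dcn rose in WT (0.39 ± 0.10, adjusted p = 0.00199). Dcn is also 1 of the 14 fibroblast and mural cell markers, whose summed level was 505 to 515 CPM in the muMT isotype group and 164 to 168 CPM in muMT anti-CTLA-4, and the part of these cells in the falls was not tested. Thbs1, a secreted activator of TGF-beta, fell by 0.25 in WT (adjusted p = 3.76e-06), from 4333 ± 50.7 CPM to 3643 ± 21.4 CPM, and by 0.19 in muMT (adjusted p = 0.000129). Nrros, which holds latent TGF-beta on myeloid cells, rose by 0.15 in WT (adjusted p = 0.0083) and by 0.15 in muMT (adjusted p = 0.00843). Among 7 co-receptor and partner genes, 4 rose and 1 fell in WT, and 2 rose and 3 fell in muMT. Ltbp1, which rose in WT (0.99, adjusted p = 0.0123), is counted both here and among the release genes. Eng, an accessory receptor, rose in both hosts (0.32 and 0.43), Cd109, a co-receptor that inhibits TGF-beta signalling, fell in both (by 0.75 and by 0.95), and the effect on Tgfbr3, the co-receptor betaglycan, differed between the hosts by 1.90 ± 0.32 (adjusted p = 1.51e-05).

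Of 17 SMAD genes and regulators, all tested, 5 rose and 4 fell in WT, and 2 rose and 10 fell in muMT. Smad3 fell by 0.69 ± 0.06 in muMT, from 69.7 ± 4.19 CPM to 43.1 ± 0.46 CPM (adjusted p = 1.41e-10), and by 0.23 ± 0.06 in WT (adjusted p = 0.00519), and its effects differed by 0.46 ± 0.09 (adjusted p = 9.46e-05). Skil, a co-repressor of SMADs that TGF-beta induces, rose in WT, from 694 ± 46.3 CPM to 900.3 ± 8.19 CPM (0.38 ± 0.04, adjusted p = 6.24e-08), and fell by 0.30 in muMT (adjusted p = 2.76e-06). Tgif1, another co-repressor, rose in WT (0.46 ± 0.05, adjusted p = 1.21e-09) and fell by 0.18 in muMT (adjusted p = 0.0021), and its effects differed by 0.64 ± 0.06 (adjusted p = 2.49e-09). Pmepa1, a TGF-beta-induced inhibitor of the pathway, fell by 0.41 in WT (adjusted p = 9.24e-06) and was not called in muMT (0.12, adjusted p = 0.163). Its effects differed by -0.53 ± 0.09 (adjusted p = 3.42e-05). Smad7, which is in both the SMAD list and the TGF-beta-responsive list, was not called in WT (-0.14, adjusted p = 0.114) or in muMT (-0.02, adjusted p = 0.805).

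Of 25 TGF-beta-responsive genes, all tested, 6 rose and 10 fell in WT, and 3 rose and 17 fell in muMT, with medians of -0.14 and -0.41. Col3a1, a fibrillar collagen gene, fell in both hosts (by 0.91 and by 1.54), as did Postn (by 1.79 and by 1.44) and Col1a2 (by 0.18 and by 1.43), all given as WT and muMT. Fn1, which encodes fibronectin, rose in muMT, from 548 ± 67.4 CPM to 1366 ± 6.27 CPM (1.32 ± 0.05, adjusted p = 9.31e-17), and fell by 0.32 in WT (adjusted p = 2.8e-05), with a difference of -1.64 ± 0.08 between the hosts (adjusted p = 2.32e-15). Tmem119, a microglia marker that depends on TGF-beta, fell by 0.96 in muMT (adjusted p = 4.54e-15) and by 0.40 in WT (adjusted p = 6.47e-07). The list includes collagen and smooth muscle genes that also mark fibroblasts and mural cells, and 4 microglia markers. Some of its genes, Tgif1, Skil and Pmepa1 among them, are also counted in the SMAD list. The summed level of 11 microglia genes was 2469 to 2610 CPM in muMT isotype, 1684 to 1704 CPM in muMT anti-CTLA-4, 2316 CPM in both WT isotype libraries and 2037 to 2086 CPM in WT anti-CTLA-4. The part of these cell types in the lists' counts was not tested.

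**Figure D4:**
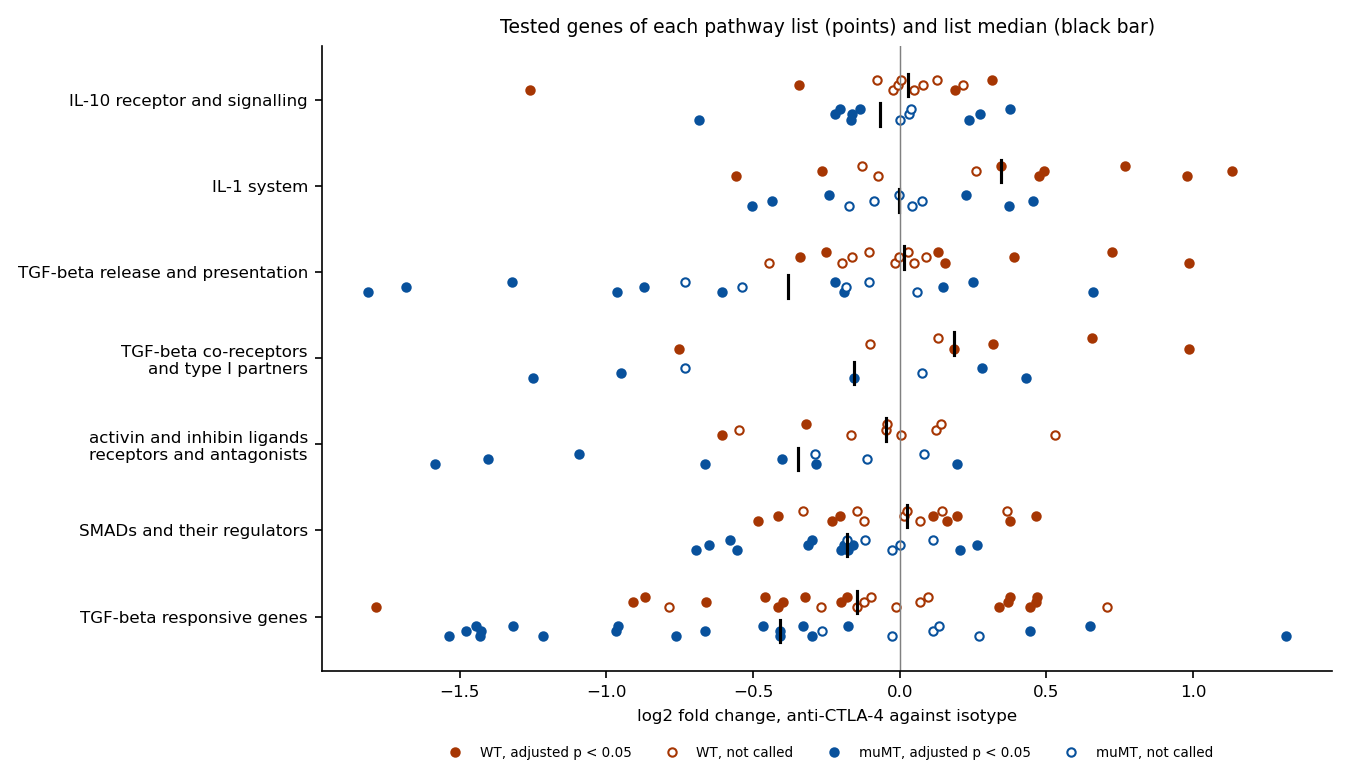
Log2 fold change with anti-CTLA-4 in WT and muMT of each tested gene in 7 pathway lists; filled points had an adjusted p under 0.05 and black bars are list medians. Among the 25 TGF-beta-responsive genes the medians are -0.14 in WT and -0.41 in muMT.

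For the remaining genes that spanned at least 1 log2 unit over the groups, the closest patterns over the 8 libraries were as follows. Il10 was most like Ifit1 (Pearson r 0.99) and Cd14 (0.98). Ifit1, an interferon-induced gene, was at 0.91 in WT and -0.56 in muMT on the log2 scale, and Cd14, the lipopolysaccharide co-receptor, at 0.33 and -0.28. Il1rn was most like Slfn4 (1.32 and 0.88 on the log2 scale in WT and muMT), Clic4 (0.35 and 0.25) and Ly6i (2.14 and 1.63), each with r = 1.00 after rounding. Tgfb2, at its low counts, was most like Loxl3, Naip5 and Fhod1 (r 0.99 each). These are the highest of 9735 correlations over libraries that form 4 groups, given as a description.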

How the data were processed

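Per the labels, RNA from sorted cells was made into stranded total RNA libraries. The authors deposited raw read counts per gene in the layout of STAR output, 1 table per library. Per the submitters' processing notes, cutadapt 5.0, STAR 2.7, DESeq2 1.42.1 and mm39 were used, and the gene annotation is not given in the sources used here. Reverse-strand counts were taken (they exceeded forward-strand counts by 23.3 to 26.5 times), without summary rows. Genes were filtered by filterByExpr and normalized by TMM, and edgeR 4.0.16 (R 4.3.3) fitted a robust quasi-likelihood model with a mean for each of 4 groups. SE is the size of the log2 fold change over the square root of F, and 95% intervals use the moderated degrees of freedom (29.3, but 8.03 for Tgfb1). Adjusted p-values are edgeR's with Benjamini-Hochberg adjustment. The code of the fit was also run on counts simulated from its own dispersion estimates, which cannot tell how well the model suits these data. Counts differed between replicates by 1.75 to 7.18 times counting error (chi-square per degree of freedom). The text names all 10 genes and up to 4 genes of each pathway list with the smallest p per antibody comparison or their difference. Further list genes describe a pathway's parts (Inha, Fst, Il1b and Smad7, chosen after their values were seen). Single marker genes, such as Klrb1c, Cd3g, Csf3r and S100a9, were also chosen after their values were seen. Also named are the 3 genes most correlated with each of the 10 whose log2 group means spanned at least 1 (mean of at least 5 CPM). A few genes this rule names are not reported here. The genes and lists were chosen with earlier results of these data known. Alternatives were another normalization, no filter, unstranded counts, a replicate block, no robust dispersion, only the compared libraries, the DESeq2 1.42.0 Wald test and each library left out. Scaling by total reads was added after seeing the data.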

Additional observations from a re-analysis of the deposited data

Results flagged for a closer look

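The effect of anti-CTLA-4 differed between WT and muMT hosts, by edgeR's test of the difference itself, for 7 of the 10 genes. On the log2 scale, WT minus muMT, the difference was 2.02 for Il10, 0.41 for Il10ra, 0.23 for Il1rn and 0.96 for Tgfb3, and it was -0.88 for Tgfb1, -1.78 for Inhba and -0.35 for Tgfbi. The WT and muMT effects themselves were 1.16 and -0.85 for Il10 and -0.40 and 0.47 for Tgfb1, with opposite signs. For Inhba they were 1.68 and 3.46, and for Tgfb3 -0.77 and -1.73. With 2 libraries in each group, no library could be tested as an outlier.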

How the results depend on the processing

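Of 50 results (10 genes in 5 comparisons), 40 kept their side of the threshold under each alternative that gave a value, as did 755 of 790 pairs of result and alternative. No called value changed sign. The uncalled host difference of Tgfbr2 under anti-CTLA-4, 0.00, did change sign, with values from -0.10 (unstranded counts, adjusted p = 0.0674) to 0.06. All values of Il10, Il1rn, Tgfb2, Tgfb3 and Tgfbr2 were among the 40. The other 10 were those of Tgfb1 except the difference, Tgfbr1 in WT and its difference, Tgfbi in WT, Il10ra under isotype, and Inhba and Tgfbi under anti-CTLA-4, with values given beside each result. Leaving out 1 library moved the number of the 10 genes called from 7 to between 5 and 8 in WT, from 9 to between 8 and 9 in muMT, from 7 to between 7 and 8 for the difference, from 7 to between 6 and 8 for the hosts under isotype and from 9 to between 6 and 9 under anti-CTLA-4. Calls over all genes then ran from 3572 to 5791 in WT, 5322 to 7092 in muMT, 5044 to 6273 for the difference, 4822 to 6242 under isotype and 7729 to 9810 under anti-CTLA-4. A group with 1 library left was assumed to vary like the others. Same-numbered replicates did not deviate together (correlations of deviations from -0.04 to 0.02 over pairs of groups). The fit with the replicate number as a block called 7, 9, 7, 7 and 9 of the 10 genes in the order above and changed no call of these genes. The median of all genes moved by less than 0.1 under each scaling. Depth limits Tgfb2, with 18 to 48 reads per library. The difference could not be fitted on only the libraries compared, since it needs all 8.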
